A study of Mus musculus with 5 samples.

Results

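The 33 genes described here encode the folding machinery of the endoplasmic reticulum (ER) and the unfolded protein response that adjusts it, and their RNA was measured in colon tumors of mice with and without human Siglec-XII, a cell surface receptor that in humans no longer binds sialic acid. The genes were chosen by name as a pathway, and the pathway was selected on these data because one of them, Sdf2l1, was among the genes that separated the groups most. All 33 were found among the 52143 genes of the table, and 31 passed the filter on low values, a TPM (transcript abundance as a part of the sample total) of 1 or more in no fewer than 2 samples. In all, 10338 genes passed. The exceptions were Ddit3 and Derl3. Because the comparison of the groups was used to select the pathway, differences between the groups are given below as a description. No p-value is printed for any of the 33 genes. Genes past a p threshold and the rank of Sdf2l1 by p are given as description only.

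The tumors came from 5 mice, 2 Control (replicates 1 and 4) and 3 SIGLEC12 (replicates 2, 3 and 4), with 1 sample each. SIGLEC12 mice carried 1 copy of a conditional human SIGLEC12 knock-in at the Rosa26 locus, driven by the ubiquitous CAG promoter after removal of a loxP-flanked EGFP-stop cassette, together with Villin1-Cre-ERT, a Cre recombinase that tamoxifen activates in intestinal epithelium. Control mice were littermates with Villin1-Cre only, so both groups carried the Cre. All mice were female, 8 weeks old at the start, and all received tamoxifen for 5 days, azoxymethane (AOM, a carcinogen, 10 mg/kg) and 4 cycles of 2.0% dextran sulfate sodium (DSS, an agent toxic to the colon lining), each of 5 days with 14 days of recovery. Tumors were taken on day 87. The transgene acts in epithelial cells, whereas the RNA came from whole tumor tissue, in which fewer cells of a type and less RNA per cell cannot be told apart. The knock-in itself was not checked, since the human transgene was not analysed here.

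Proteins that enter the secretory pathway pass through the Sec61 channel into the ER, where they are folded by the Hsp70 chaperone BiP with its cochaperones, by the Hsp90 chaperone Grp94, by the lectin chaperones calreticulin and calnexin, and by protein disulfide isomerases. When unfolded proteins accumulate, the membrane sensors IRE1, PERK and ATF6 signal to transcription factors that raise the genes for chaperones and for ER-associated degradation, which returns misfolded proteins to the cytosol for breakdown. In the colon this machinery serves above all the goblet cells, which secrete mucin, and IRE1 beta, the product of Ern2, is a sensor particular to mucous epithelium.

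The best known DNA element of the response is the ER stress response element (ERSE), spelled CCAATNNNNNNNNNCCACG, which is bound by NF-Y at its first part and by ATF6 or XBP1 at its last. Promoter windows of 250 bases before and 50 bases after each RefSeq start site (assembly GRCm38.p6) were matched by symbol for 27 of the 33 genes. They were not matched for Derl1, Ern2, Manf, Atf6, Sec61a1 and Hyou1. Both strands were searched for the exact letters. An ERSE stood in the window of 9 of the 27 genes (33.3%), against 37 of all 27025 genes with a window (0.137%). The sites are shown because the element is the one through which the response is known to raise chaperone genes. Dnajb9, Pdia3, Pdia4 and P4hb had a window without it, and 2 of the 9 genes with it, Syvn1 and Derl3, act in degradation. Each is printed 5′ to 3′ on the strand of its gene with 10 flanking bases on either side, and the capitals mark the CCAAT box and the closing CCACG part or, where the element lies on the opposite strand, their complements.

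Hspa5: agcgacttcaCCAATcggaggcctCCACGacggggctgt
Dnajc3: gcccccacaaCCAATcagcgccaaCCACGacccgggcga
Hsp90b1, distal site: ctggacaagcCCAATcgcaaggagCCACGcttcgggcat
Hsp90b1, proximal site: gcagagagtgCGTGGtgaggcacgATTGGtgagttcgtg
Calr: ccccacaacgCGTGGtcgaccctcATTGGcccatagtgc
Canx: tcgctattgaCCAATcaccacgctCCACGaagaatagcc
Pdia6: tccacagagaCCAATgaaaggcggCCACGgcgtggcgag
Creld2: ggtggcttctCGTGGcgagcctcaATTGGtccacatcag
Syvn1: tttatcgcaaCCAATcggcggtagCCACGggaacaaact
Derl3: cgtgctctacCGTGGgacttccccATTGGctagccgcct

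These sequences lie at chr2:34772015-34772053 (plus strand) for Hspa5, chr14:118937817-118937855 (plus) for Dnajc3, chr10:86705628-86705666 and chr10:86705523-86705561 (minus) for Hsp90b1, chr8:84847065-84847103 (minus) for Calr and chr11:50325790-50325828 (minus) for Canx. Those of the other genes lie at chr12:17266481-17266519 (plus) for Pdia6, chr15:88819510-88819548 (plus) for Creld2, chr19:6046522-6046560 (plus) for Syvn1 and chr10:75893232-75893270 (plus) for Derl3. All 10 elements were upstream of the RefSeq start, from the distal Hsp90b1 site at positions -212 to -194 to the Syvn1 site at -44 to -26, where -1 is the last base before the start. A second element, ERSE-II (ATTGGNCCACG), was found in 2 of the 27 genes (7.41%), against 12 of the 27025 (0.0444%). These were Dnajb11, where it lay 7 to 17 bases after the start, and Herpud1, where it lay at -52 to -42 and is shown for the same reason, at chr8:94386367-94386397 (plus).

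Herpud1: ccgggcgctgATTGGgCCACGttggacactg

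The letters of the XBP1 element TGACGTGG were in none of the 27 windows and in 0.714% of the 27025 genes, and those of an ATF4 element, TGATGCAA, were in 1, Herpud1, and in 1.03% of the genes. Sdf2l1, a component of the complexes that BiP forms with its J-domain cochaperones, had no exact match to any of these 4 motifs. The 250 bases upstream of it and of Hspa5 are shown to compare the gene that led to the selection with the best known target. The capitals mark the same parts and their complements, and in the window of Sdf2l1 (chr16:17132384-17132633, minus strand) these parts occur without the spacing of an ERSE. The Hspa5 window is chr2:34771840-34772089 (plus strand). In GENCODE M21, which the gene coordinates follow, Sdf2l1 is chr16:17130138-17132383 (minus strand), and Hspa5 is chr2:34771970-34777547 (plus strand), so that its annotated start there precedes the RefSeq start and the ERSE.

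Sdf2l1: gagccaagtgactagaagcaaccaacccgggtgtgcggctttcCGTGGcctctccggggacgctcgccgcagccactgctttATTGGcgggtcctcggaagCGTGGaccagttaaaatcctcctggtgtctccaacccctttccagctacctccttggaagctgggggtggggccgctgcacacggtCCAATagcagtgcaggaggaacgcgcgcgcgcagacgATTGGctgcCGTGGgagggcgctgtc
Hspa5: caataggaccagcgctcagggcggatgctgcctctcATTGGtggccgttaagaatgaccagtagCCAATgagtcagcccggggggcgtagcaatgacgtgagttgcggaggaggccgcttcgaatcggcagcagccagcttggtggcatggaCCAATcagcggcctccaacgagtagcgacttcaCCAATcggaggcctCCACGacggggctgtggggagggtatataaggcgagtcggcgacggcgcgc

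Levels are given as deposited, as log2(TPM + 1), and a difference is SIGLEC12 minus Control on that scale, which understates changes of low genes. TPM was taken over every annotated RNA, of which protein-coding genes held 5.70% and 6.73% in the Control samples and 8.84%, 8.74% and 9.71% in the SIGLEC12 samples. The median difference over all 10338 tested genes was accordingly 0.381. Each difference is therefore also given after every sample was rescaled to the same protein-coding total, where that median was 0.00881. The make-up of the tissue differed as well. Markers of squamous epithelium summed to 3121 TPM in Control replicate 1 and to between 498.1 and 1203 in the other samples, and columnar epithelium markers to 376.3 TPM in that sample and to between 1106 and 1870 in the others. Goblet cell markers summed to 393.7 TPM in Control replicate 1, 994.7 in Control replicate 4, and 1226, 1186 and 1126 in the SIGLEC12 samples. Results are for this reason also given without Control replicate 1, and the part of tissue make-up in them was not tested.

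Several chaperones and disulfide isomerases were higher in every SIGLEC12 tumor than in either Control tumor on both scales, among them Sdf2l1, Hsp90b1, Calr, Pdia3 and P4hb, whereas Hspa5, Canx and Creld2 overlapped after rescaling. The stress sensors overlapped between the groups or lay below the difference of the median gene. As deposited, the difference was above 0 for 31 of the 31 tested genes of the list, beside 87.2% of all tested genes. The median over the 31 genes was 0.607. The groups did not overlap for 25 of the 31 (80.6%), all higher, beside 54.1% of all tested genes higher and 1.67% lower. After rescaling, the difference was above 0 for 22 and below 0 for 9, beside 51.1% of all tested genes above 0. The median over the 31 genes was then 0.148. The groups then did not overlap, with SIGLEC12 higher, for 10 of the 31 (32.3%), beside 15.7% of all tested genes, and with SIGLEC12 lower for 1, Ern1 (3.23%), beside 16.8%. Those 10 were Sdf2l1, Manf, Hsp90b1, Calr, Pdia3, Pdia4, Pdia6, P4hb, Derl2 and Sec61b.

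No gene passed a Benjamini-Hochberg adjusted p under 0.05 with a change of at least 2-fold in limma, as deposited or rescaled (0.0% in both). At an unadjusted p under 0.05, 20 of the 31 genes were higher as deposited (64.5%), beside 33.4% of all tested genes, and 0 lower, beside 0.909%. After rescaling 6 were higher (19.4%), beside 4.46%, and 0 lower, beside 6.28%. With the added requirement of a 2-fold change, 7 were higher as deposited (22.6%), beside 3.97%, and 0 lower, beside 0.445%. These were Sdf2l1, Manf, Hsp90b1, Pdia3, Pdia6, P4hb and Sec61b, and 1 of them, Sdf2l1, was past the same threshold after rescaling (3.23%), beside 0.368%, with 0 lower, beside 1.37%. Nothing is read from these counts, because the comparison helped to select the genes.

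**Figure D1:**
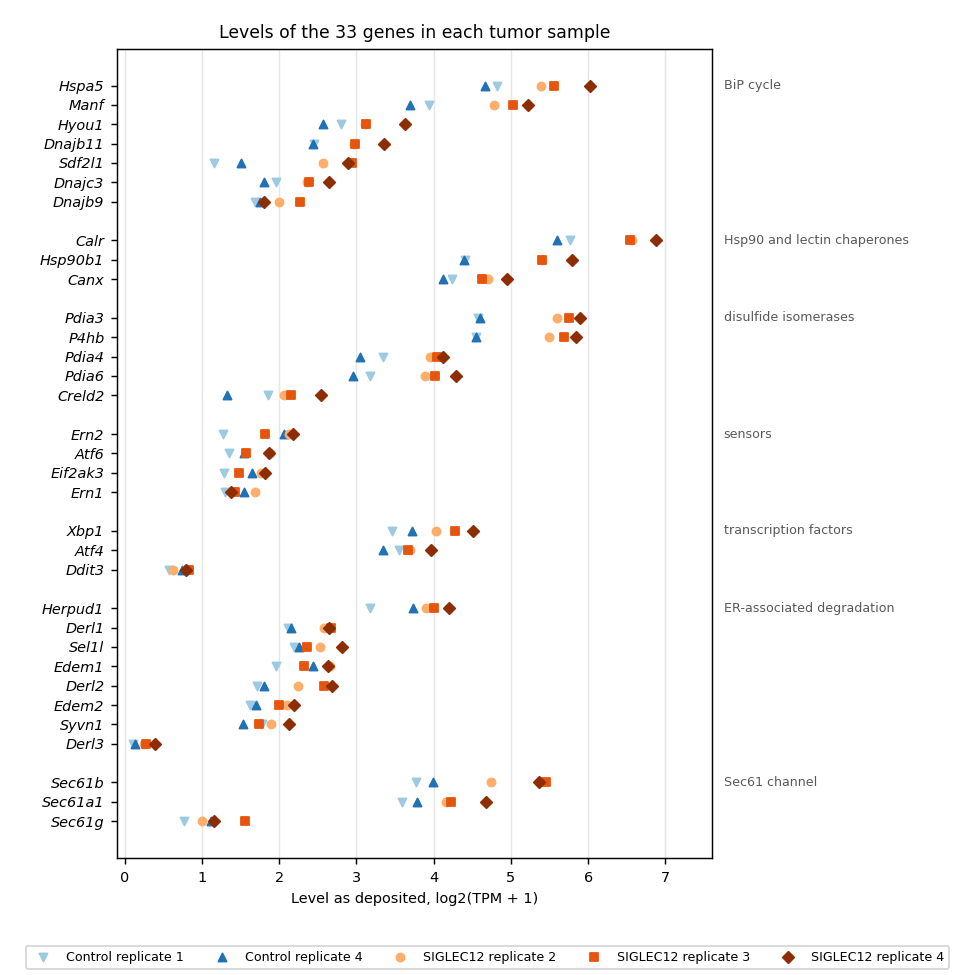
Level of each of the 33 genes, log2(TPM + 1) as deposited, on the horizontal axis, with 1 symbol per tumor sample (blue triangles, 2 Control; orange to brown symbols, 3 SIGLEC12) and genes grouped by role. Calr, Hsp90b1, Pdia3 and P4hb show a clear gap between the blue and orange symbols, while the symbols of the sensors Ern1, Ern2 and Eif2ak3 are mixed.

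The most abundant of the genes per length was Calr, with a mean of 80.7 TPM over the 5 samples, followed by Pdia3 (41.0), Hspa5 (40.6), P4hb (39.1) and Hsp90b1 (35.4). The last 4 of these overlapped one another in their sample values. Together these 5 made up between 47.7% and 53.8% of the summed TPM of the 33 genes in every sample. The scarcest were Derl3 (0.177 TPM), Ddit3 (0.641) and Sec61g (1.21), and the sensors Ern1 (1.78) and Eif2ak3 (2.05) were also low. Of all protein-coding TPM, a share that the scaling does not alter, the 33 genes held 0.510% and 0.428% in the Control samples and 0.564%, 0.620% and 0.670% in the SIGLEC12 samples. The groups did not overlap, and the means were 0.469% ± 0.0583 (SD, n = 2) and 0.618% ± 0.0534 (SD, n = 3).

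BiP, encoded by Hspa5, is the Hsp70 chaperone of the ER and holds the sensors inactive. Its level was 4.82 and 4.66 in the Control samples and 5.39, 5.56 and 6.02 in the SIGLEC12 samples, a difference of 0.92 ± 0.27 (SE). All 3 SIGLEC12 samples were above both Control samples. After rescaling the difference was 0.38, and Control replicate 1 (5.29) lay above SIGLEC12 replicate 2 (5.24).

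Sdf2l1 had the largest difference of the 33 genes. Its level was 1.16 and 1.51 in the Control samples and 2.56, 2.94 and 2.89 in the SIGLEC12 samples, a difference of 1.46 ± 0.20 (SE). In TPM these were 1.24 and 1.85 against 4.92, 6.68 and 6.41. The groups stood well apart, and after rescaling the levels were 1.45 and 1.67 against 2.44, 2.82 and 2.64, a difference of 1.08. Among the 10338 tested genes Sdf2l1 stood at rank 4 by unadjusted p and at rank 68 by size of difference, or 74 after rescaling. High ranks were built into the choice of the pathway, which was selected on these data through Sdf2l1, so they are no evidence of a difference.

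Manf, a small ER protein that slows nucleotide exchange by BiP, followed within this group. Its level was 3.94 and 3.70 in the Control samples and 4.78, 5.03 and 5.22 in the SIGLEC12 samples, a difference of 1.20 ± 0.24 (SE). The rescaled difference was 0.67, again without overlap. The J-domain cochaperones, which stimulate the ATPase of BiP, had smaller differences. Dnajb11 (ERdj3) differed by 0.66 ± 0.20 (SE) as deposited and 0.19 rescaled, and Dnajc3 (p58IPK, also an inhibitor of PERK) by 0.58 ± 0.18 and 0.15. The nucleotide exchange factor Hyou1 differed by 0.61 ± 0.23 (SE), or 0.12 rescaled. Dnajb9 (ERdj4), which restrains IRE1, was 1.69 and 1.75 in the Control samples and 2.00, 2.27 and 1.80 in the SIGLEC12 samples, and its difference of 0.30 ± 0.19 (SE) became -0.10 after rescaling. None of these last 4 genes was free of overlap after rescaling. As a share of protein-coding TPM the 7 genes of the BiP cycle held 0.103% and 0.0778% in the Control samples and 0.106%, 0.123% and 0.139% in the SIGLEC12 samples, so that Control replicate 1 nearly reached SIGLEC12 replicate 2.

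Hsp90b1 encodes Grp94, the Hsp90 chaperone of the ER, which folds integrins and Toll-like receptors. It was at 4.41 and 4.40 in the Control samples and at 5.40, 5.40 and 5.79 in the SIGLEC12 samples, a difference of 1.13 ± 0.23 (SE) as deposited and 0.59 rescaled, with no overlap on either scale. Calreticulin and calnexin both bind monoglucosylated glycoproteins, the first in the ER lumen and the second in the membrane. Calr was at 5.76 and 5.59 against 6.56, 6.55 and 6.88, a difference of 0.99 ± 0.24 (SE), and stayed free of overlap after rescaling with 0.44. Canx was at 4.23 and 4.12 against 4.71, 4.62 and 4.96, a difference of 0.58 ± 0.22 (SE), and after rescaling it differed by 0.05 with overlapping groups. The soluble lectin chaperone thus differed by more than its membrane-bound partner, as the ratio of the pair given further on also shows.

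The disulfide isomerases, which form and reshuffle disulfide bonds, had the highest median difference of the 7 roles on both scales, 1.0 as deposited and 0.498 rescaled. The Hsp90 and lectin chaperones were close, at 0.987 and 0.442. Without Control replicate 4 the order of these roles as deposited was reversed, at 0.887 for the disulfide isomerases and 0.903 for the Hsp90 and lectin chaperones. Pdia3 (ERp57), the partner of calreticulin and calnexin, was at 4.57 and 4.61 in the Control samples and at 5.59, 5.75 and 5.90 in the SIGLEC12 samples, a difference of 1.16 ± 0.22 (SE). P4hb, protein disulfide isomerase itself and a subunit of prolyl 4-hydroxylase, was at 4.55 and 4.55 against 5.49, 5.68 and 5.84, a difference of 1.12 ± 0.23 (SE). As deposited, both pairs of Control values were tight and far below every SIGLEC12 value. After rescaling the pairs were wider, at 5.035 and 4.835 for Pdia3 and 5.007 and 4.783 for P4hb. The lowest rescaled SIGLEC12 values were 5.443 for Pdia3 and 5.34 for P4hb. Pdia6, which attenuates IRE1, was at 3.18 and 2.95 against 3.89, 4.02 and 4.29, and Pdia4 (ERp72) at 3.35 and 3.05 against 3.96, 4.05 and 4.12, with differences of 1.0 ± 0.22 and 0.84 ± 0.20 (SE). After rescaling the 4 differences were 0.62, 0.59, 0.50 and 0.34 for Pdia3, P4hb, Pdia6 and Pdia4, each without overlap. Creld2 was at 1.86 and 1.33 against 2.07, 2.16 and 2.54, a difference of 0.66 ± 0.23 (SE). Its Control values lay far apart, and its groups overlapped after rescaling, with a difference of 0.25. The 5 genes held 0.114% and 0.0911% of protein-coding TPM in the Control samples and 0.139%, 0.157% and 0.159% in the SIGLEC12 samples.

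**Figure D2:**
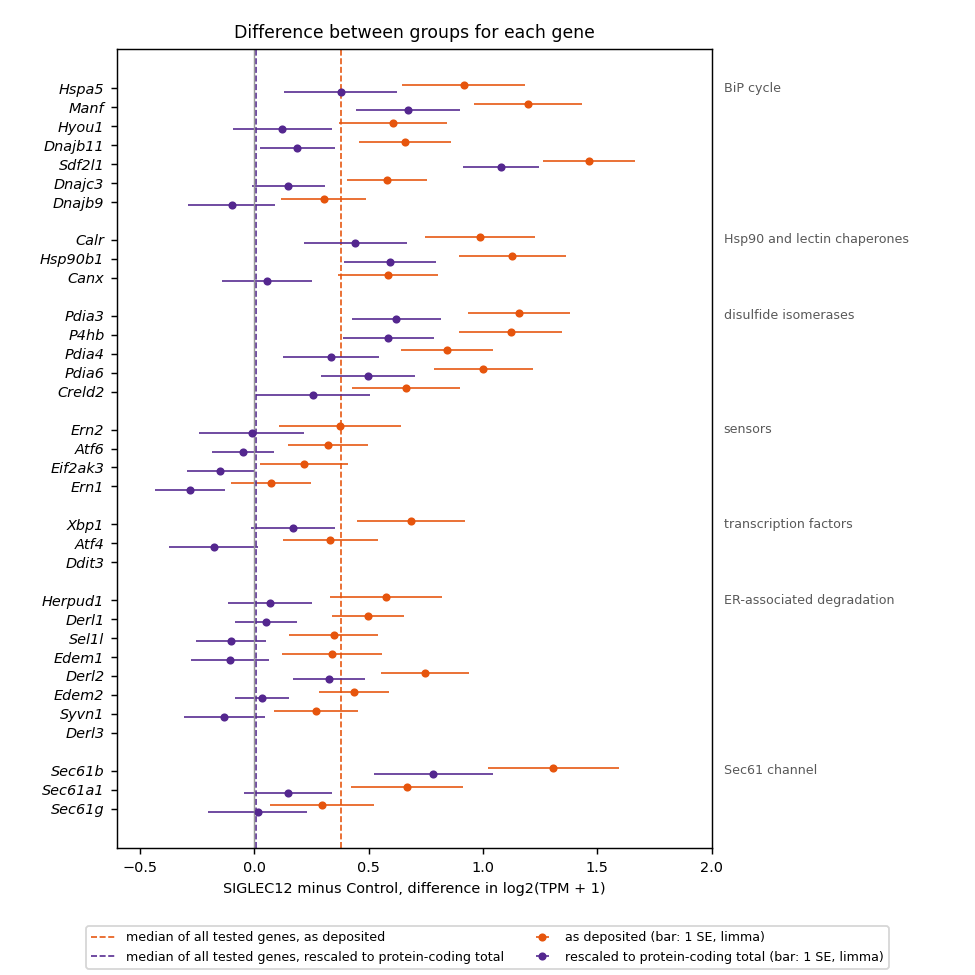
Difference between groups (SIGLEC12 minus Control, log2 units) for each of the 31 tested genes as deposited (orange) and once rescaled by protein-coding total (purple), with bars of 1 SE from limma. Dashed lines mark the medians of all tested genes, 0.381 and 0.00881. Ddit3 and Derl3 were not tested and have no point. The disulfide isomerases lie to the right of the line of their own colour on both scales, and the sensors lie at or to the left of it.

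The sensors had a median difference of 0.270 as deposited, below that of all genes, and of -0.0982 after rescaling. Ern1, which encodes the ubiquitous IRE1 alpha, was at 1.30 and 1.54 in the Control samples and at 1.68, 1.43 and 1.38 in the SIGLEC12 samples, a difference of 0.07 ± 0.18 (SE). The groups overlapped. After rescaling Ern1 was at 1.61 and 1.71 against 1.58, 1.34 and 1.21, the 1 gene of the list in which every SIGLEC12 value lay below both Control values. Eif2ak3, which encodes PERK, was at 1.28 and 1.65 against 1.77, 1.48 and 1.81, a difference of 0.22 ± 0.19 (SE) and of -0.15 rescaled. Atf6 was at 1.35 and 1.55 against 1.88, 1.57 and 1.86, a difference of 0.32 ± 0.17 (SE) and of -0.05 rescaled. Ern2 was at 1.27 in Control replicate 1 and 2.06 in Control replicate 4, and at 2.13, 1.82 and 2.17 in the SIGLEC12 samples, a difference of 0.38 ± 0.27 (SE) and of -0.01 rescaled. The low Ern2 value fell in the sample with the lowest goblet cell markers, and without that sample the difference was -0.02 as deposited.

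Among the transcription factors, Xbp1, whose mRNA IRE1 splices, was at 3.46 and 3.72 in the Control samples and at 4.04, 4.27 and 4.52 in the SIGLEC12 samples, a difference of 0.68 ± 0.23 (SE). The groups did not overlap as deposited but did after rescaling, where the difference was 0.17. The table holds 1 value per gene, so splicing of Xbp1 was not analysed here. Atf4, which is translated when PERK or another kinase phosphorylates eIF2 alpha, was at 3.55 and 3.34 against 3.70, 3.66 and 3.97, a difference of 0.33 ± 0.21 (SE) and of -0.18 rescaled. Its target Ddit3, encoding the proapoptotic factor CHOP, was below 1 TPM in all samples, at 0.57 and 0.74 against 0.63, 0.83 and 0.79. The groups overlapped, and no difference was detectable at so low a level.

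Genes of ER-associated degradation had a median difference of 0.436 as deposited and 0.034 rescaled. After rescaling the groups did not overlap, with SIGLEC12 higher, for 1 of the 7 tested genes, Derl2 (14.3%), beside 15.7% of all tested genes. Derl2, a derlin of the membrane complex through which misfolded proteins leave the ER, had the largest difference of the 7 on both scales. It was at 1.71 and 1.80 in the Control samples and at 2.24, 2.58 and 2.68 in the SIGLEC12 samples, a difference of 0.75 ± 0.19 (SE), and at 0.33 without overlap after rescaling. Herpud1, a membrane scaffold of the ligase complex, was at 3.18 and 3.73 against 3.90, 4.0 and 4.19, a difference of 0.58 ± 0.25 (SE) and of 0.07 rescaled. Without Control replicate 1, its low sample, the difference as deposited was 0.30. The ubiquitin ligase Syvn1 (Hrd1) and its partner Sel1l differed by 0.27 ± 0.18 and 0.35 ± 0.19 (SE), and both lay below 0 after rescaling, at -0.13 and -0.10. Derl1 and the mannosidase-like Edem2 differed by 0.50 ± 0.16 and 0.44 ± 0.15 (SE) as deposited and by 0.05 and 0.03 rescaled, and Edem1 by 0.34 ± 0.22 (SE) and -0.10. Derl3 was below 1 TPM in all samples, at 0.10 and 0.13 against 0.26, 0.28 and 0.39, with no overlap. The 8 genes held between 0.0433% and 0.0479% of protein-coding TPM in all 5 samples, with the groups overlapping.

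The 3 subunits of the Sec61 channel differed to unequal extents. Sec61b, the beta subunit, was at 3.77 and 3.99 in the Control samples and at 4.74, 5.45 and 5.36 in the SIGLEC12 samples, a difference of 1.31 ± 0.29 (SE) and of 0.78 rescaled without overlap. Sec61a1, the pore-forming alpha subunit, was at 3.59 and 3.78 against 4.16, 4.22 and 4.68, a difference of 0.67 ± 0.24 (SE) and of 0.15 rescaled with overlap. Sec61g, the gamma subunit, was at 0.76 and 1.12 against 1.0, 1.56 and 1.15, a difference of 0.30 ± 0.23 (SE) and of 0.01 rescaled. SIGLEC12 replicate 2 had the lowest value of its group for all 3 subunits.

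Ratios of 2 genes within a sample are free of the scaling. The log2 ratio of Sdf2l1 to Sdf2, its constitutive paralog, was -0.92 and -0.81 in the Control samples and 0.13, 0.31 and 0.86 in the SIGLEC12 samples, so that the order of the pair was turned around. The ratio of Hsp90b1 to cytosolic Hsp90ab1 was -1.87 and -1.61 against -1.14, -1.07 and -0.67, and that of Hspa5 to cytosolic Hspa8 was -1.91 and -1.93 against -1.69, -1.42 and -1.33. In both pairs the ER chaperone stood higher against its cytosolic counterpart in all 3 SIGLEC12 samples. The ratio of Calr to Canx was 1.58 and 1.53 against 1.90, 1.97 and 1.96, and that of Hspa5 to Atf4 was 1.36 and 1.42 against 1.78, 1.99 and 2.13. Sec61b to Sec61a1 was 0.19 and 0.22 against 0.61, 1.28 and 0.70. Sdf2l1 to Hspa5 was -4.46 and -3.72 against -3.06, -2.79 and -3.32, so Sdf2l1 differed by more than BiP. The groups overlapped for Ern2 to Ern1, Atf6 to Atf6b, Edem1 to Edem2, Creld2 to Creld1, P4hb to Hspa5, Hspa5 to Ern1 and Xbp1 to Hspa5. The pairs were chosen with the values of the genes known.

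**Figure D3:**
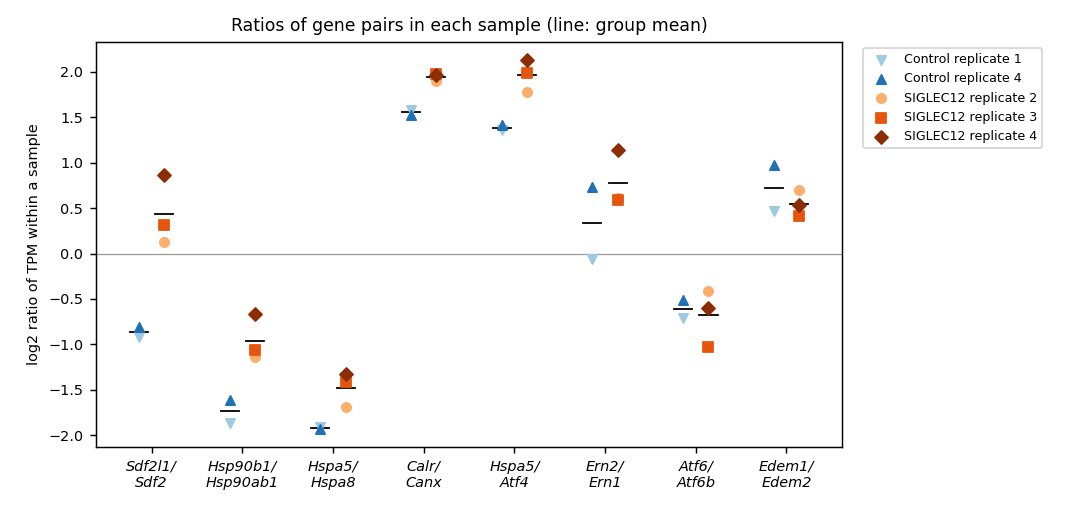
Log2 ratio of the TPM of 2 genes within each sample for 8 pairs, with 1 symbol per sample (blue, 2 Control; orange to brown, 3 SIGLEC12) and a line at each group's mean. The first 5 pairs from the left have no overlap between the groups, and the last 3, Ern2 to Ern1, Atf6 to Atf6b and Edem1 to Edem2, overlap.

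Leaving out Control replicate 1, the sample rich in squamous markers, left 1 Control sample to compare with. The median over the 31 genes was then 0.638 as deposited, against 0.257 for all tested genes, and 0.225 rescaled, against -0.0478. By role, the disulfide isomerases stood at 1.12 as deposited and 0.699 rescaled, the Hsp90 and lectin chaperones at 1.07 and 0.645, and the BiP cycle at 0.724 and 0.349, each larger than with both Control samples. The sensors stood at 0.00639 and -0.296. The differences for Hspa5, Hsp90b1 and Sdf2l1 were 1.0, 1.13 and 1.29 as deposited.

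Leaving out Control replicate 4 in its place gave smaller rescaled values. The median over the 31 genes was 0.654 as deposited, against 0.518 for all tested genes, and 0.080 rescaled, against 0.0712. After rescaling 18 of the 31 lay above 0 (58.1%), close to the 57.3% of all tested genes. The disulfide isomerases then stood at 0.271 rescaled, the Hsp90 and lectin chaperones at 0.239 and the BiP cycle at 0.080. Set against Control replicate 1 alone, the rescaled difference was 1.19 for Sdf2l1, 0.78 for Sec61b, 0.52 for Pdia3, 0.47 for P4hb and Hsp90b1, 0.18 for Hspa5 and 0.07 for Pdia4. With Control replicate 4 as the reference, the list as a whole was thus above the median gene after rescaling. With Control replicate 1 it was close to that median. Sdf2l1, Sec61b, Pdia3, P4hb and Hsp90b1 differed by 0.47 or more with either. Other genes were above 0 with either as well, among them Manf, Pdia6, Calr and Derl2. Against Control replicate 1 these 4 stood at 0.43, 0.27, 0.24 and 0.29. The share of protein-coding TPM held by the 33 genes was higher in SIGLEC12 by 0.149 percentage points, by 0.190 without Control replicate 1 and by 0.108 without Control replicate 4. Across all settings tried, 14 of the genes had a difference above 0 wherever they were tested, namely Hspa5, Hsp90b1, Calr, Pdia3, Pdia4, Pdia6, P4hb, Sdf2l1, Manf, Dnajb11, Xbp1, Derl2, Sec61a1 and Sec61b. The share of all tested genes above 0 in every setting was not computed, so nothing is read from this count. As deposited, 87.2% of all tested genes lay above 0.

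The size of the difference went with the level of a gene, for the list and for the genome alike, on a scale that understates changes of low genes. Among the 900 tested genes with a mean level of at least 4, the median difference was 0.715 as deposited and 0.18 rescaled. The 10 genes of the list at that level, Calr, Canx, Hsp90b1, Hspa5, Manf, P4hb, Pdia3, Sec61a1, Sec61b and Xbp1, had medians of 1.05 and 0.514. Among the 5632 genes with a mean level under 2 the medians were 0.299 and -0.0202, and the 9 genes of the list there, the 4 sensors among them, had 0.303 and -0.0487. In the range between, the 3806 genes had 0.491 and 0.0346, and the 12 of the list 0.593 and 0.136. The median of the 10 abundant genes was thus above that of other abundant genes, but Canx, Sec61a1 and Xbp1 lay below it on both scales, and the median of the 9 scarce genes was close to that of other scarce ones.

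**Figure D4:**
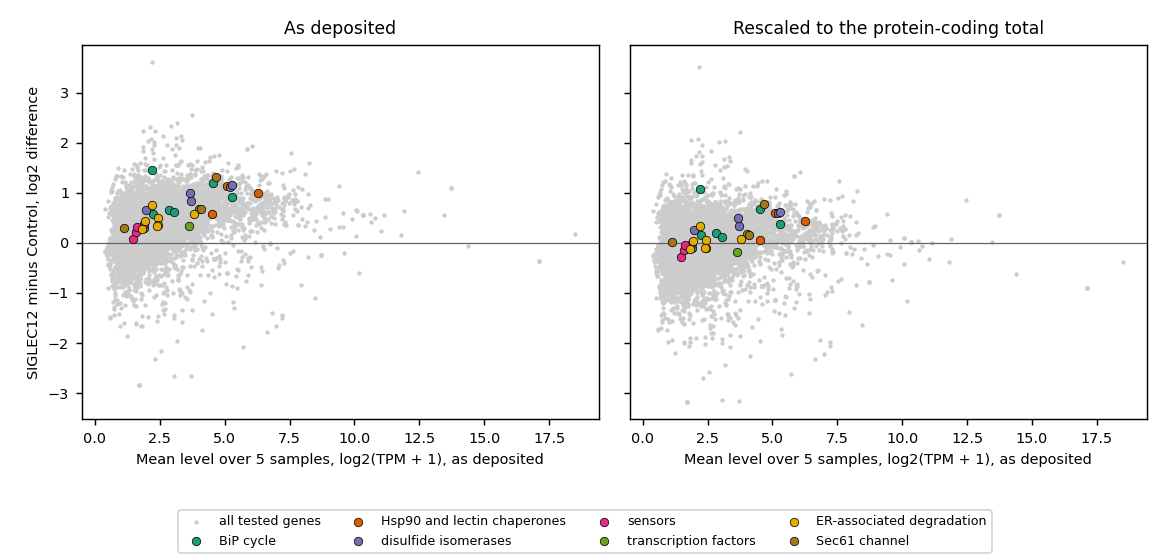
Difference between groups (SIGLEC12 minus Control, log2 units) against mean level, log2(TPM + 1), for the 10338 tested genes (grey) and the 31 tested genes of the list (coloured by role), as deposited on the left and rescaled to the protein-coding total on the right. The coloured points at a level of 4 or more lie mostly in the upper part of the grey cloud in both panels, and the pink sensors lie within it.

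Cells that are rich in ER were looked at through their markers. Of the plasma cell markers, 3 of 10 passed the filter, and Mzb1, Ighm, Tnfrsf17, Pou2af1, Cd79a and Irf4 were below 1 TPM in every sample. Their sum was 44.0 and 29.3 TPM in the Control samples and 69, 38.5 and 42.2 in the SIGLEC12 samples, with overlap. Sdc1, which epithelial cells also express, made up most of that sum in every sample but SIGLEC12 replicate 2, where it was 33.5 of 69 TPM. Without Sdc1 the other 9 markers summed to 1.19 and 3.04 TPM against 35.5, 5.13 and 6.76, with no overlap. Igkc, the kappa light chain constant region, was at 0.655 and 1.76 TPM against 24.9, 3.09 and 4.33, and Jchain, which joins immunoglobulin multimers, at 0.0902 and 0.177 TPM against 1.33, 0.799 and 0.559. Both were higher in every SIGLEC12 sample, though Jchain did not pass the filter. Igha, which passed it, overlapped between the groups, at 0.301 and 0.945 TPM against 8.79, 0.896 and 1.74. Ighm overlapped as well, at 0.117 and 0.0503 TPM against 0.2945, 0.230 and 0.0562. For goblet cells, 6 of the 10 tested markers had groups that did not overlap, all higher in SIGLEC12, beside 54.1% of all tested genes, and 3 after rescaling, beside 15.7%. For columnar epithelium these were 9 higher and 1 lower of 13, beside 54.1% and 1.67%, and 3 and 1 after rescaling, beside 15.7% and 16.8%. Fibroblast markers summed to 9.51 and 11.5 TPM against 60.6, 19.3 and 25.9, and myeloid markers to 26.1 and 11.3 against 27.1, 50.1 and 12.8. The part of plasma cell, goblet, columnar or fibroblast content in the differences of the chaperone genes was not tested.

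The rest of the pathway was taken from lists outside the 33 genes. Of 28 tested further folding enzymes of the ER, 20 were higher at an unadjusted p under 0.05 as deposited (71.4%), beside 33.4% of all tested genes, and 0 lower, beside 0.909%, with a median of 0.603, or 0.163 rescaled. Their highest were Agr2 (1.37 as deposited, 0.83 rescaled), a disulfide isomerase needed for mucin, and Prdx4 (1.01 and 0.62), an ER peroxiredoxin, and their lowest Rcn1 (-0.59 and -0.96) and Dnajc1 (0.16 and -0.17). Of 22 further translocation genes 16 were higher (72.7%, beside the same 33.4%) and 0 lower, with medians of 0.560 and 0.101. The highest were the signal sequence receptor subunits Ssr4 (1.14 and 0.61) and Ssr2 (1.10 and 0.58), and the lowest Srp68 (0.18 and -0.25) and Sec63 (0.21 and -0.21). Of 21 further degradation genes 12 were higher (57.1%, beside 33.4%) and 0 lower, with medians of 0.538 and 0.116, from Selenos (0.91 and 0.44) down to Ufd1 (0.29 and -0.13) and Faf2 (0.29 and -0.16). After rescaling 4, 2 and 1 genes of these lists were higher at an unadjusted p under 0.05 (14.3%, 9.09% and 4.76%), beside 4.46% of all tested genes, and 1, 0 and 0 lower, beside 6.28%.

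Genes of the integrated stress response, the arm that runs through eIF2 alpha and ATF4, had medians of 0.264 as deposited and -0.172 rescaled over 19 tested genes, of which 2 were higher (10.5%, beside 33.4% of all tested genes) and 0 lower at an unadjusted p under 0.05 as deposited. Their highest were Ddit4 (1.13 and 0.67), an inhibitor of mTORC1, and Nupr1 (1.06 and 0.56), and their lowest the amino acid transporter Slc7a5 (-0.53 and -0.95) and the folate enzyme Mthfd2 (-0.27 and -0.56). Other sensors and regulators had medians of 0.542 and 0.0809 over 13 genes, from Tmbim6 (0.89 and 0.35) and Creb3 (0.82 and 0.40) to Mbtps2 (0.27 and -0.09) and Eif2ak2 (0.29 and -0.08), and 8 were higher (61.5%, beside 33.4%) and 0 lower. Chaperones of the cytosol and mitochondria had medians of 0.300 and -0.190 over 28 genes, and 8 were higher (28.6%, beside 33.4%) and 0 lower as deposited, with 0 higher and 3 lower (10.7%, beside 6.28%) rescaled. The heat shock genes Hspa1b (-1.18 and -1.65) and Hspb1 (-0.82 and -1.36) were their lowest, and Hspe1 (0.64 and 0.13) and Cct6a (0.64 and 0.10) their highest. The low values rested largely on Control replicate 1. Without it Hspa1b differed by -0.33 as deposited and -0.675 rescaled, and Hspb1 by 0.34 and -0.07. Slc7a5 then differed by 0.06 and -0.23, and Mthfd2 by -0.09 and -0.29. The rescaled median of the chaperones of the cytosol and mitochondria was then 0.00593. No gene of these 6 lists passed the adjusted threshold. These lists were written with earlier results of the same samples known and are no independent evidence of a direction.

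Several of the 33 genes have paralogs that act in another compartment or at a steady level. Sdf2 differed by 0.53 as deposited and 0.10 rescaled, Hspa8 by 0.49 and -0.05, Hspa9 by 0.48 and -0.03, Hsp90ab1 by 0.38 and -0.16 and Hsp90aa1 by 0.07 and -0.46. Sec61a2 differed by 0.21 and -0.12, and Creld1 was not tested. Edem3 differed by 0.40 as deposited and Atf6b by 0.42, slightly more than Edem1 and Atf6. Sdf2l1 and Hsp90b1 were thus above their paralogs on both scales, and Hspa5 above Hspa8 and Hspa9.

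Read against the sequences printed at the start, the 10 tested genes with an ERSE or ERSE-II in the window had a median difference of 0.661 as deposited and 0.222 rescaled. After rescaling 9 of the 10 were above 0 (90.0%), the exception being Syvn1, beside 51.1% of all tested genes. The 15 tested genes with a window and neither element had medians of 0.436 and 0.034, and 9 of the 15 were above 0 after rescaling (60.0%). This second set held the largest rescaled differences among genes with a window, those of Sdf2l1, Sec61b and Pdia3. Against Control replicate 1 alone the rescaled medians of the sets were 0.13 and 0.0717, and against Control replicate 4 alone 0.45 and 0.0822. The shares above 0 were 60.0% in both sets against Control replicate 1 alone, and 90.0% and 60.0% against Control replicate 4 alone. Of the other genes in the genome with either element, 34 were in the table and 11 were tested, with medians of 0.351 and 0.0216, which is close to all tested genes. A match of letters says nothing of binding in these tumors.

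**Figure D5:**
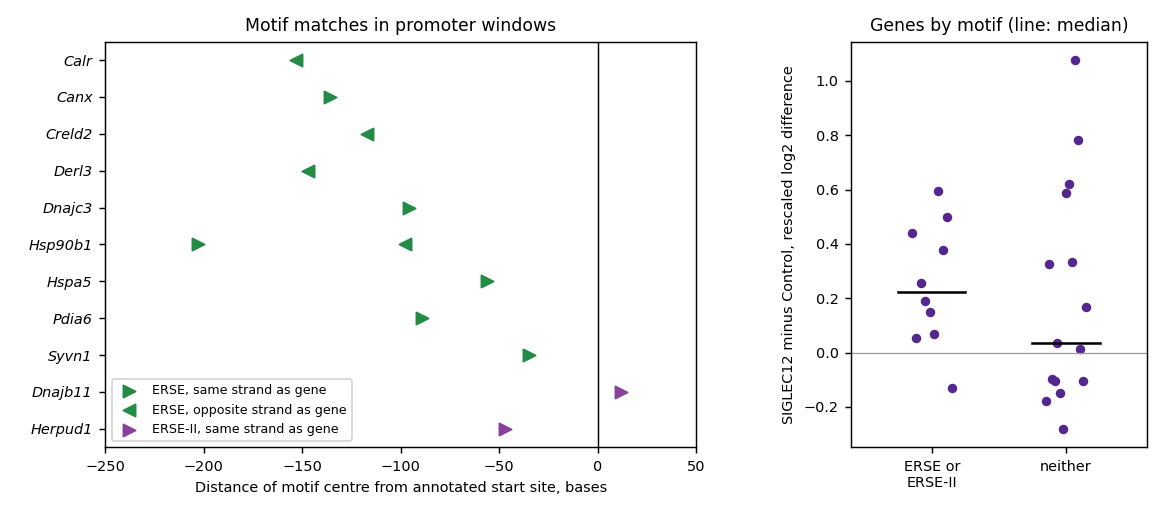
Left, distance in bases from the annotated start site to the centre of each ERSE (green) and ERSE-II (purple) match in the promoter windows, with arrowheads for the strand relative to the gene. Right, rescaled difference between groups (SIGLEC12 minus Control, log2 units) for the tested genes with either element (median 0.222) and with neither (median 0.034), with a line at each median. The 2 sets overlap widely.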

How the data were processed

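RNA from colon tumors of 2 Control and 3 SIGLEC12 mice was sequenced (labels: paired reads of 100 bases), and samples were grouped by the treatment given in the labels. The values deposited by the authors were log2(TPM + 1), one column per sample, for 52143 mouse genes. The submitters' processing notes name kallisto 0.45.0 and GRCm38, whereas the study's methods name a human reference. The labels name a stranded total RNA kit and the methods an mRNA kit. The methods name technical replicate libraries without saying how they were joined in the table. TPM keeps no counts, so the depth of a value cannot be had and counting error is left out. TPM is relative to all annotated RNA, which is why a scaling to protein-coding genes was set beside it. Columns not mapped to a sample numbered 0. By identifier, 98.29% of genes matched GENCODE M21, the source of biotypes. Where a symbol had several identifiers, the one with the highest mean was kept.

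Genes with a TPM of at least 1 in at least 2 samples were fitted with limma 3.58.1 in R 4.3.3 (lmFit, eBayes with trend, pseudocount 1, no covariate, all 5 samples), and p-values were adjusted over all 10338 genes by Benjamini-Hochberg. The thresholds were an adjusted p under 0.05, or an unadjusted p of at most 0.05, with at least a 2-fold change. The fit was tested on simulated data. All p-values measure the spread between these 5 mice. The 33 genes and all lists were chosen with earlier results of these data known. Named were all 33 genes, listed paralogs, and in each further list the 2 highest and 2 lowest tested genes, of which 1 is not reported here. Promoters were RefSeq windows on GRCm38.p6. Alternatives were other pseudocounts, filters, scalings and leaving out each sample.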

Additional observations from a re-analysis of the deposited data

How the results depend on the processing

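No paired analysis was possible, because the sample titles do not say that replicate numbers pair animals of the groups. Only the number 4 is found in both. As deposited, 0 genes passed the adjusted threshold in either direction. Leaving out 1 sample at a time gave 0 to 962 higher and 0 to 97 lower, with 962 higher without Control replicate 4, and 1 higher and 2 lower were found when that sample was left out after rescaling. Of the 33 genes, 0 passed it, and 0 to 3 when 1 sample was left out, with 3 without Control replicate 4. Past the unadjusted threshold were 410 higher and 46 lower genes. The higher count was 1087 with a pseudocount of 0.1, 38 rescaled to the protein-coding total, 56 with median-ratio scaling, 27 rescaled without Control replicate 1, and 143 to 1366 when 1 sample was left out. The lower count was 19 with a filter of 5 TPM, 142 rescaled, 128 with median-ratio scaling, 223 rescaled without Control replicate 1, 381 rescaled without Control replicate 4, and 51 to 146 when 1 sample was left out. Of the 33 genes, 7 were past it, 6 to 9 when 1 sample was left out, 1 rescaled, 1 with median-ratio scaling, 0 rescaled without Control replicate 1 and 1 rescaled without Control replicate 4. Their median difference of 0.607 was 0.842 with a filter of 5 TPM, 0.148 rescaled, 0.166 with median-ratio scaling, 0.225 rescaled without Control replicate 1, 0.080 rescaled without Control replicate 4, and 0.498 to 0.695 when 1 sample was left out. Without Control replicate 4 after rescaling it exceeded the median of all genes by 0.00885, against 0.139 with both Control samples. The difference in the share of protein-coding TPM, 0.149 percentage points, was 0.108 to 0.190 when 1 sample was left out. Settings without a Control sample leave 1, assumed to vary like the SIGLEC12 samples, and the setting joining rescaling with the removal of Control replicate 4 was chosen after seeing the data. The cause of these shifts was not tested. With 2 against 3 samples and unknown depth, differences at low levels are the least certain.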
